A study of Rattus norvegicus with 40 samples.

Results

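The presynaptic vesicle and release machinery is described here through 40 genes, measured in total RNA of rat cerebral cortex. The genes were listed by function, with earlier results of these data known. They encode proteins of the synaptic vesicle membrane, calcium sensors, the fusion machinery, Rab3 and the active zone, the endocytic machinery and the vesicular transmitter transporters. Each gene was read from the probe sets annotated to it alone, and of several, the one with the highest mean log2 level was used. By that rule 36 of the 40 members were measured, among 10304 genes measured in all. The probe sets of Syt2, Syt7 and Rph3a lay below the filter on low signal, with mean log2 intensities of 4.06, 4.14 and 4.28 against a floor of 4. Doc2a had no probe set of its own by this annotation and is not analysed here.

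The study compared 20 arrays from the group labelled hypoxic preconditioning with 20 from the group labelled sham, which was kept in normal oxygen. In hypoxic preconditioning, an animal is exposed for a while to air with less oxygen, which can make the brain more resistant to later injury. Not given in the sources are the strain, the age, the oxygen level, the duration and the time of sampling. Numbers from 1 to 20 mark the samples of both groups, and they were read as 4 runs of 5 (1 to 5, 6 to 10, 11 to 15, 16 to 20) in either group. The meaning of a run is not stated, so no condition is attached to it. Separate animals are not stated either, and p-values therefore measure only the spread between arrays, some of which may be technical.

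Synaptic vesicles are filled with transmitter by vesicular transporters, tethered at the active zone and made ready for release by Rab3, RIM and Munc13 proteins. Vamp2 on the vesicle pairs with Stx1a and Snap25 on the plasma membrane, and calcium binding to Syt1 triggers fusion. Nsf and its adaptors then take the complexes apart, and dynamin and its partners retrieve the membrane. In the cortex these transcripts come mostly from neurons, and many of them rise as synapses form and mature.

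Every value is a probe set intensity on the log2 scale, a difference is a log2 difference with the standard error (SE) of the limma fit, and a gene is called where its limma p-value, adjusted over all 18625 probe sets, lies under 0.05. Counts at an unadjusted p under 0.05 are given without the share of all probe sets at that threshold. They cannot be set against the shares called at the adjusted threshold. Levels of different genes are not compared, because each probe set has its own response. Array medians spanned 0.291 on the log2 scale. Preconditioned arrays 5 and 6 stood apart, with medians of 5.59 and 5.53 against 5.71 or more on the others. The 3' to 5' signal ratio, which tracks RNA integrity, lay between 1.38 and 1.90 for actin and between 0.892 and 1.06 for GAPDH. The cortical neuron markers Neurod6 and Tbr1 were detected with mean signals at percentiles 97.7 and 68.3 of all probe sets, and the striatal markers Drd1 and Adora2a at percentiles 74 and 69.1.

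Many presynaptic transcripts were higher in the sham arrays numbered 16 to 20 than in those numbered 1 to 5. Of the 36 measured members, 14 were called higher and 0 lower, where 14.8% of all probe sets were called, 6.94% higher and 7.88% lower. Because the members were chosen with earlier results of these data known, this count describes the list and does not test it. The median difference of the members was 0.25, against -0.012 over all probe sets, and 31 of the 36 lay above 0. In the preconditioned arrays, which share no array with the sham comparison, 13 members were called higher and 0 lower, against 17.6% of all probe sets, 9.58% higher and 8.03% lower. Their median difference was 0.16 against 0.013, and 30 of 36 lay above 0. With median centring of the arrays this median was 0.13. The split of all called probe sets then moved from 1784 higher and 1495 lower to 1316 and 1559. Syp, Vamp1 and Dnm1 were no longer called with centring (limma adjusted p = 0.0602, 0.0604 and 0.0502). In the sham comparison centring moved the split from 1293 and 1467 to 1190 and 1202, and the members' median to 0.26. The 11 members called higher in both comparisons are 11 of the 14 sham calls and 11 of the 13 preconditioned calls, and 3.38% of all probe sets were called higher in both. They are Syn2, Syp, Syt1, Syt5, Stx1a, Cplx2, Cplx3, Nsf, Napb, Dnm1 and Slc17a7. Among them, Syp and Dnm1 lost the preconditioned call and Napb the sham call under some alternative processing. Both comparisons take their estimate of the spread from the same fit. Deviations of sham and preconditioned arrays with the same number also correlated (median 0.159), so the comparisons are not independent of each other. Whatever separates the runs cannot be told apart from the arrays' processing, and in bulk tissue fewer cells of a type and less RNA per cell cannot be told apart either.

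**Figure D1:**
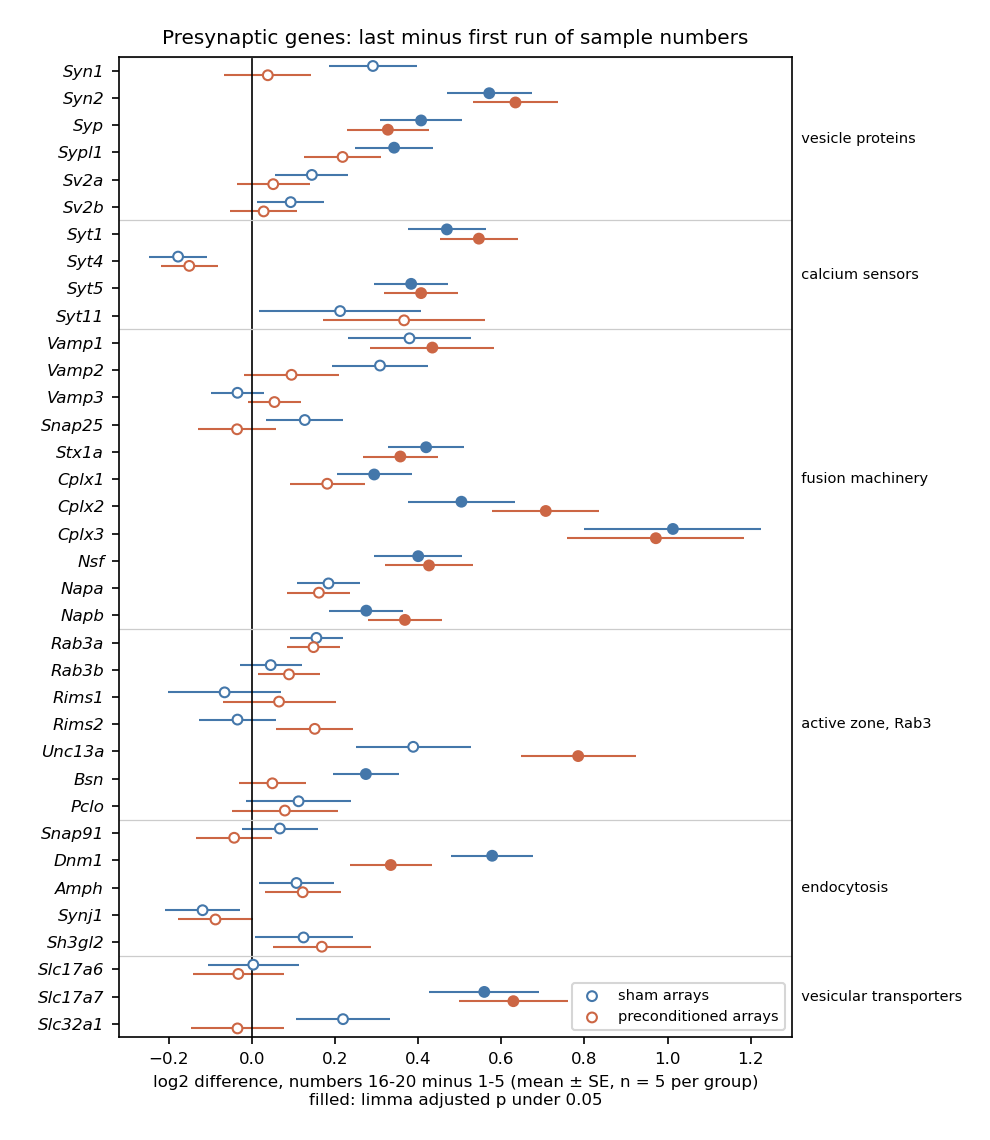
Log2 difference between the arrays numbered 16 to 20 and those numbered 1 to 5 for each of the 36 measured members, by role, in sham (blue) and preconditioned (orange) arrays, with bars of ± SE (n = 5 per group). Filled points are called; all 14 filled sham points and all 13 filled preconditioned points lie to the right of 0, and Cplx3 lies farthest right in both.

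Among the vesicle proteins, 3 of 6 were called higher in the sham comparison and 2 of 6 in the preconditioned one. Syn2, a synapsin that clusters vesicles, had levels of 8.30, 8.31, 8.39, 8.36 and 8.57 in the sham arrays numbered 1 to 5 and 8.58, 9.15, 8.92, 9.02 and 9.12 in those numbered 16 to 20. Every array of the last run lay above every array of the first. Its difference was 0.57 ± 0.10 (SE), a 1.49-fold higher intensity, with a limma adjusted p of 0.000286. Preconditioned Syn2 levels were 8.37, 8.23, 8.46, 8.28 and 8.17 in the first run and 8.56, 9.14, 8.97, 9.06 and 8.95 in the last. The groups again did not overlap, and the difference was 0.63 ± 0.10 (SE, limma adjusted p = 3.16e-05).

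Syp, an abundant membrane protein of the vesicle, measured 9.32, 9.35, 9.57, 9.48 and 9.27 in the first sham run and 9.64, 10.06, 9.64, 9.93 and 9.76 in the last. The last run lay above the first in every array, by 0.41 ± 0.098 (SE, limma adjusted p = 0.00444). Its preconditioned arrays measured 9.42, 9.47, 9.48, 9.46 and 9.88 and then 9.63, 9.86, 9.95, 9.90 and 10.01, and here array 5 of the first run lay among the arrays of the last. The preconditioned difference was 0.33 ± 0.098 (SE, limma adjusted p = 0.0171). It was 0.41 without preconditioned arrays 5 and 6 (limma adjusted p = 0.00111), and the call ended without preconditioned array 20 (limma adjusted p = 0.0529). With median centring the difference was 0.30 and not called either (limma adjusted p = 0.0602). Sypl1, a relative of Syp that is also found outside neurons, was called in the sham arrays, at 0.34 ± 0.093 (SE, limma adjusted p = 0.0105). Without sham array 18 its difference was 0.22, and it was no longer called (limma adjusted p = 0.068). Its preconditioned difference of 0.22 ± 0.093 was not called. Sv2a and Sv2b, transporter-like vesicle proteins, were called in neither run comparison, with differences between 0.028 and 0.14.

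Syn1, the other synapsin, was lowest in the second sham run. Its sham arrays measured 9.46, 9.31, 9.33, 9.30 and 9.69 in the first run, 9.22, 8.99, 9.16, 9.12 and 9.01 in numbers 6 to 10, 9.17, 9.33, 9.38, 9.20 and 9.35 in numbers 11 to 15 and 9.49, 9.81, 9.53, 9.87 and 9.84 in the last run. The second run was the lowest and lay below the first in every array, and the last run was the highest on average. The F-test over the 4 sham runs called Syn1 (limma adjusted p = 0.000975), while the last run minus the first missed the threshold, at 0.29 ± 0.11 (SE, limma adjusted p = 0.0554). The preconditioned arrays of Syn1 measured 9.45, 9.68, 9.35, 9.52 and 9.75 in the first run and 9.34, 9.65, 9.71, 9.49 and 9.74 in the last, overlapped throughout and differed by 0.038 ± 0.11 (SE, 95% interval -0.18 to 0.25). A second Syn1 probe set was called higher in the last sham run, at 0.26 ± 0.093 (SE, limma adjusted p = 0.0474), and not in the last preconditioned run, at 0.083 ± 0.093.

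The promoters of 4 members are shown, of Syn2, Syp and Syt1 as members called higher in the last run of both groups and of Syn1 as one whose representative probe set was called in neither. Sequences run 5′ to 3′ from 250 bases before to 50 bases after the transcription start, from RefSeq on assembly GRCr8, in which 32 of the 40 members had an entry. Capitals mark matches, on either strand, to GCGGGGGCG, a motif bound by Egr factors, to CAGCACC, a part of the element bound by the repressor REST, and to TGACGTCA, the cyclic AMP response element. The 3 motifs were chosen after the values were known. All 4 promoters shown hold the Egr motif, which most member promoters lack, so they do not stand for the members.
Syn1 (chrX:3725495-3725794, plus strand): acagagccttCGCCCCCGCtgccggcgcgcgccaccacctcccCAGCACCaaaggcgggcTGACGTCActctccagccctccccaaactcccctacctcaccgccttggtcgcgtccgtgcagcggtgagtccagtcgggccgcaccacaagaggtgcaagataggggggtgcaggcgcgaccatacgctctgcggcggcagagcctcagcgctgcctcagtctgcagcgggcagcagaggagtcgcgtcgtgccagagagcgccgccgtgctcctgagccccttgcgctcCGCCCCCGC
Syn2 (chr4:149858669-149858968, plus strand): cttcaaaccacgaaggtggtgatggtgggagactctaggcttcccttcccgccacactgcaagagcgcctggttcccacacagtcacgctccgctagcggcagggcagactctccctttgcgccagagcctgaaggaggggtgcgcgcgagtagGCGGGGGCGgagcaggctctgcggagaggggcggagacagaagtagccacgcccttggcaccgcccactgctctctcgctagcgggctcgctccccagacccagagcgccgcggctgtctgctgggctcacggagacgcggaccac
Syp (chrX:17536400-17536699, minus strand): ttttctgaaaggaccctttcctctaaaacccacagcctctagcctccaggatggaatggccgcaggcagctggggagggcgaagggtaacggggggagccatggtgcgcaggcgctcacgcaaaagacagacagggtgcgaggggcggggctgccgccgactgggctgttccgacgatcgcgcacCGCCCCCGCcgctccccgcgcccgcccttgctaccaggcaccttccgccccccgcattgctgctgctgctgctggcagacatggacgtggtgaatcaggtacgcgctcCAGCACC
Syt1 (chr7:46244164-46244463, minus strand): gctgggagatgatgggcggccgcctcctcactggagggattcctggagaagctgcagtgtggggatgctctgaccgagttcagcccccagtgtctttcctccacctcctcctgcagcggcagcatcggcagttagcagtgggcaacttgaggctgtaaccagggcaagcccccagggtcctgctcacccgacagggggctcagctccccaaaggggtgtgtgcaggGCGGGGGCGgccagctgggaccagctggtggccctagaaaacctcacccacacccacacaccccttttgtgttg
The Egr motif occurred in 8 of the 32 member promoters (Syn1, Syn2, Syp, Syt1, Vamp2, Cplx1, Nsf and Sh3gl2) and in 2.73% of 33469 promoters of the same length. CAGCACC occurred in 7 of 32 member promoters (Syn1, Syp, Syt4, Sv2b, Unc13a, Bsn and Rph3a) against 6.78% of all, and TGACGTCA in 4 of 32 (Syn1, Vamp1, Napa and Sh3gl2) against 1.83%. Of 12 promoters of members called higher in the last sham run, 5 held the Egr motif, 2 CAGCACC and 0 TGACGTCA, and of 18 promoters of the other measured members 3, 4 and 4 did. No test was made of these counts. Member promoters had a median GC content of 64.5%, against 51.7% over all promoters, and the Egr motif consists of G and C alone. A match describes the letters in this window and is neither a site nor a cause.

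Of the calcium sensors, Syt1 and Syt5 were higher in the last run in both groups, and Syt4 was not. Syt1, the sensor for fast synchronous release, measured 9.49, 9.58, 9.76, 9.70 and 9.61 in the first sham run and 9.97, 10.31, 10.06, 10.12 and 10.03 in the last. All arrays of the last run lay above all of the first, by 0.47 ± 0.094 (SE, 1.38-fold, limma adjusted p = 0.000854). Its preconditioned arrays measured 9.51, 9.44, 9.77, 9.55 and 9.54 in the first run and 9.99, 10.25, 9.92, 10.17 and 10.20 in the last, again without overlap, with a difference of 0.55 ± 0.094 (SE, limma adjusted p = 8.34e-05). Syt5, a close relative of Syt1, differed by 0.38 ± 0.089 in sham and 0.41 ± 0.089 in preconditioned arrays (SE, limma adjusted p = 0.00311 and 0.0012). Syt11, which does not bind calcium, was called in neither comparison, at 0.21 ± 0.20 and 0.37 ± 0.20.

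Syt4, a synaptotagmin that has lost fast calcium triggering and sits on other secretory vesicles too, was lowest in the last sham run. Its sham arrays measured 11.01, 11.11, 10.92, 11.06 and 10.89 in the first run, 11.14, 11.18, 11.06, 11.16 and 11.06 in numbers 6 to 10, 11.17, 11.01, 11.02, 10.96 and 11.05 in numbers 11 to 15 and 10.92, 10.76, 10.86, 10.77 and 10.81 in the last. The second run lay above the last in every array, and the F-test over the sham runs called Syt4 (limma adjusted p = 0.0127). That call ended with median centring of the arrays (limma adjusted p = 0.0753) and with the mean of both Syt4 probe sets (limma adjusted p = 0.423). The last run minus the first was -0.18 ± 0.069 (SE) and not called (limma adjusted p = 0.0741).

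**Figure D2:**
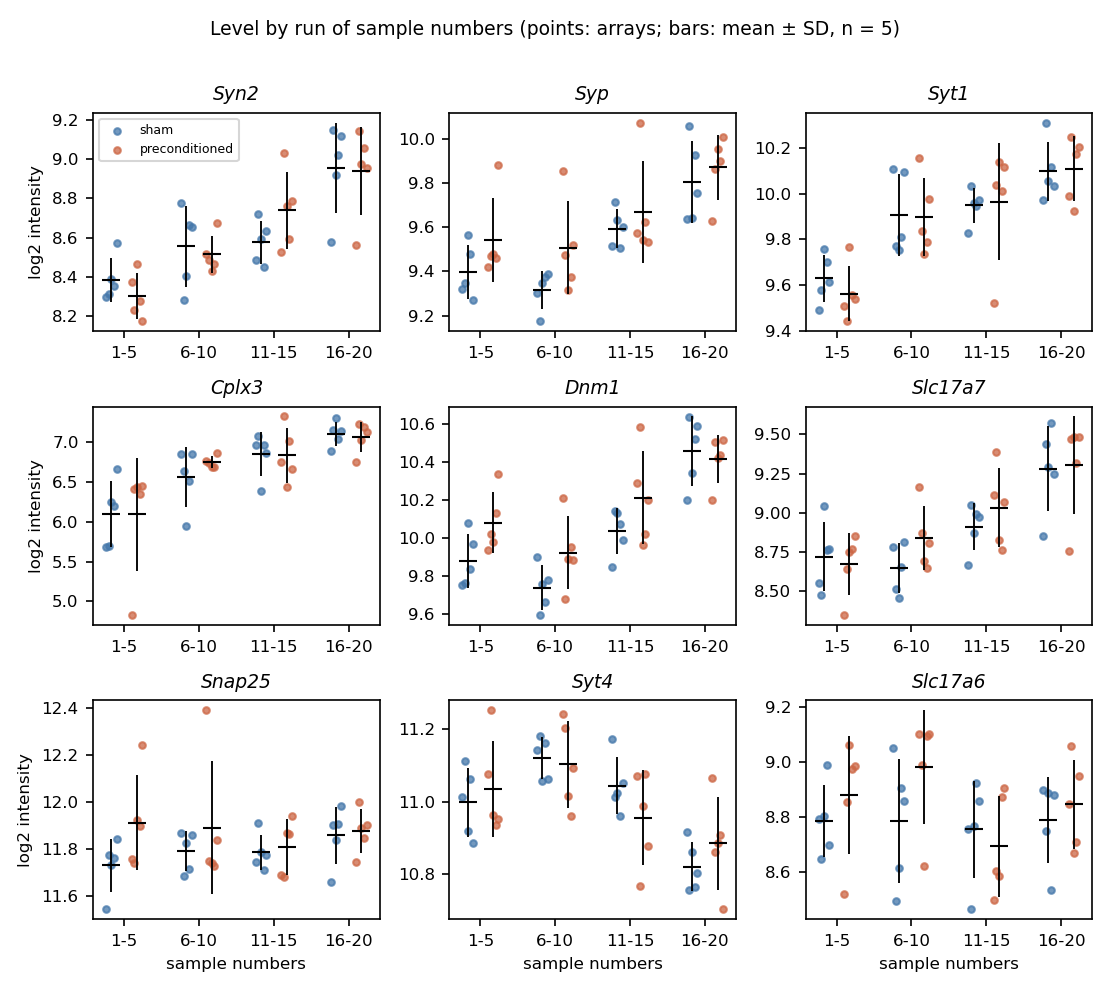
Log2 intensity of 9 members on each array by run of sample numbers, in sham (blue) and preconditioned (orange) arrays, with the mean ± SD of each group of 5. Syn2, Syt1, Cplx3, Dnm1 and Slc17a7 are highest in the last run in both groups, while the first and last runs of Snap25 and Slc17a6 overlap and Syt4 is lowest in the last sham run.

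The fusion machinery held the member with the largest difference in both comparisons, Cplx3. Of its 11 measured members, 6 were called higher in the sham comparison and 6 in the preconditioned one. Cplx3, a complexin best known from retinal ribbon synapses and deep cortical layers, measured 5.68, 5.69, 6.25, 6.19 and 6.66 in the first sham run and 6.89, 7.15, 7.30, 7.05 and 7.15 in the last. All arrays of the last run were higher, and the difference was 1.01 ± 0.21 (SE), or 2.02-fold (limma adjusted p = 0.00135). The preconditioned arrays of Cplx3 measured 4.83, 6.42, 6.44, 6.35 and 6.45 in the first run and 6.76, 7.23, 7.03, 7.19 and 7.14 in the last. Array 1 was by far the lowest, all 5 arrays of the last run lay above all of the first, and the difference was 0.97 ± 0.21 (SE, limma adjusted p = 0.00132).

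Cplx2, a complexin of excitatory terminals that binds assembled SNARE complexes, measured 7.72, 7.69, 7.75, 7.80 and 8.05 in the first sham run and 8.00, 8.56, 8.21, 8.25 and 8.51 in the last. Sham arrays 5 and 16 overlapped, and the difference was 0.50 ± 0.13 (SE, limma adjusted p = 0.00671). Preconditioned Cplx2 levels were 7.92, 7.71, 7.95, 7.58 and 7.45 and then 8.35, 8.60, 8.37, 8.42 and 8.40, without overlap, a difference of 0.71 ± 0.13 (SE, limma adjusted p = 0.000173). Cplx1, another complexin, was called in the sham arrays, at 0.29 ± 0.090 (SE, limma adjusted p = 0.0238), and not in the preconditioned arrays, at 0.18 ± 0.090 (limma adjusted p = 0.167). A second Cplx1 probe set was called in both, at 0.51 ± 0.14 in sham and 0.55 ± 0.14 in preconditioned arrays (SE, limma adjusted p = 0.00873 and 0.00378). The sham call of Cplx1 ended when sham array 1, 2, 17 or 20 was left out, with limma adjusted p-values of up to 0.0819.

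Stx1a, the plasma membrane SNARE syntaxin, measured 8.93, 9.01, 9.38, 9.29 and 9.24 in the first sham run and 9.32, 9.82, 9.56, 9.68 and 9.56 in the last. Array 3 of the first run and array 16 of the last overlapped, and the difference was 0.42 ± 0.091 (SE, limma adjusted p = 0.00172). Its preconditioned difference was 0.36 ± 0.091 (SE, limma adjusted p = 0.00495). Snap25, the partner of syntaxin on the plasma membrane, measured 11.54, 11.78, 11.73, 11.76 and 11.84 and then 11.66, 11.90, 11.84, 11.91 and 11.98 in these sham runs. The runs overlapped and differed by 0.13 ± 0.093 (SE, 95% interval -0.061 to 0.32, limma adjusted p = 0.384). Preconditioned Snap25 levels were 11.76, 11.74, 11.92, 11.90 and 12.24 in the first run and 11.74, 12.00, 11.89, 11.85 and 11.90 in the last, a difference of -0.036 ± 0.093 (SE, 95% interval -0.22 to 0.15).

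Vamp2, the main vesicle SNARE of the forebrain, measured 9.53, 9.54, 9.79, 9.74 and 9.69 in the first sham run and 9.84, 10.21, 9.81, 10.02 and 9.95 in the last, without overlap. The F-test over the sham runs called it (limma adjusted p = 0.0417), while the last run minus the first was not called, at 0.31 ± 0.12 (SE, limma adjusted p = 0.0638). The F-test call ended when sham array 1, 2, 6, 8, 9, 17, 19 or 20 was left out, with limma adjusted p-values of up to 0.165. In the preconditioned arrays the first run measured 9.56, 9.82, 9.85, 9.94 and 10.08 and the last 9.77, 10.12, 9.99, 9.92 and 9.92, which overlapped, and the difference was 0.095 ± 0.12 (SE). Vamp1, its relative best known from brainstem and spinal cord, was called in the preconditioned arrays. There it measured 6.58, 6.14, 6.46, 6.23 and 6.79 in the first run and 6.74, 7.09, 6.90, 6.71 and 6.94 in the last, with array 5 of the first run above arrays 16 and 19 of the last. The difference was 0.43 ± 0.15 (SE, limma adjusted p = 0.0373), and the call ended when preconditioned array 2, 3, 4, 17, 18 or 20 was left out, with limma adjusted p-values of up to 0.119. It also ended with quantile normalization, median centring, and no filter on low signal (limma adjusted p = 0.0569, 0.0604 and 0.0728). The sham difference of Vamp1 was 0.38 ± 0.15 and not called (limma adjusted p = 0.0799).

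Nsf, the ATPase that takes spent SNARE complexes apart, was higher in the last run in both groups. Its preconditioned arrays measured 9.97, 9.99, 10.05, 10.14 and 10.33 in the first run and 10.33, 10.71, 10.44, 10.59 and 10.53 in the last, and arrays 5 and 16 came closest without crossing. The difference was 0.43 ± 0.11 in preconditioned and 0.40 ± 0.11 in sham arrays (SE, limma adjusted p = 0.00407 and 0.00862). Its adaptor Napb, the brain form of alpha-SNAP, differed by 0.37 ± 0.089 and 0.28 ± 0.089 (SE, limma adjusted p = 0.00319 and 0.0317). The sham call of Napb ended when sham array 1, 2, 17, 19 or 20 was left out, with limma adjusted p-values of up to 0.12. It also ended with quantile normalization, no filter on low signal, and only the arrays compared (limma adjusted p = 0.0573, 0.0627 and 0.062). Napa, the widely expressed adaptor, was called in neither, at 0.18 ± 0.076 and 0.16 ± 0.076, and Vamp3, a SNARE of most cells, lay between -0.035 and 0.054.

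At the active zone 1 of 7 members was called higher in each comparison, and it was not the same one. Bsn, the scaffold bassoon, was called in the sham arrays, at 0.27 ± 0.080 (SE, limma adjusted p = 0.0174), and not without sham array 19 (limma adjusted p = 0.0759). Its preconditioned difference was 0.049 ± 0.080 (SE, 95% interval -0.11 to 0.21). Unc13a, or Munc13-1, which primes vesicles for fusion, measured 5.39, 5.36, 5.36, 5.42 and 5.31 in the preconditioned arrays numbered 1 to 5 and 6.00, 5.99, 6.26, 6.13 and 6.38 in those numbered 16 to 20. The first run was narrow and lay below every other preconditioned array, and the difference was 0.79 ± 0.14 (SE, 1.72-fold, limma adjusted p = 0.000122). The sham arrays of Unc13a measured 5.90, 5.57, 6.04, 5.68 and 5.69 and then 5.84, 6.06, 5.92, 6.58 and 6.42, which overlapped, and the difference of 0.39 ± 0.14 missed the threshold (limma adjusted p = 0.0513). Rab3a, Rab3b, Rims1, Rims2 and Pclo were called in neither comparison, with differences between -0.066 and 0.16.

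Dnm1, the neuronal dynamin that pinches off endocytic vesicles, was the 1 endocytic member of 5 that was called in these comparisons. It measured 9.75, 9.76, 10.08, 9.83 and 9.97 in the first sham run, 9.90, 9.59, 9.76, 9.66 and 9.78 in numbers 6 to 10, 9.85, 10.14, 10.13, 10.07 and 9.99 in numbers 11 to 15 and 10.20, 10.64, 10.34, 10.52 and 10.59 in the last. The last run lay above all other sham arrays, and its difference to the first was 0.58 ± 0.099 (SE, 1.49-fold, limma adjusted p = 0.000196). The preconditioned difference was 0.33 ± 0.099 (SE, limma adjusted p = 0.016). It was 0.40 without preconditioned arrays 5 and 6, and with median centring it was no longer called (limma adjusted p = 0.0502). Amph, Synj1, Sh3gl2 and Snap91, which bind or act beside dynamin and clathrin, lay between -0.12 and 0.17 and were not called.

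Of the 3 measured vesicular transporters, 1 was called in each comparison. Slc17a7, or VGLUT1, the glutamate transporter of cortical projection neurons, measured 8.55, 8.48, 9.05, 8.76 and 8.77 in the first sham run and 8.85, 9.44, 9.29, 9.57 and 9.25 in the last. Array 3 of the first run lay above array 16 of the last, and the difference was 0.56 ± 0.13 (SE, 1.47-fold, limma adjusted p = 0.00374). Its preconditioned arrays measured 8.35, 8.64, 8.75, 8.77 and 8.86 in the first run and 8.76, 9.47, 9.49, 9.32 and 9.48 in the last, with array 16 as the low one of the last run. The preconditioned difference was 0.63 ± 0.13 (SE, limma adjusted p = 0.000828). Slc17a7 is also 1 of 6 measured markers of cortical projection neurons, and 0 of the other 5 were called higher in either group. In the last sham run Neurod6 and Bcl11b were called lower, at -0.26 ± 0.086 and -0.29 ± 0.091 (SE, limma adjusted p = 0.0357 and 0.0284), and in the last preconditioned run Bcl11b was, at -0.41 ± 0.091 (SE, limma adjusted p = 0.0013). The summed intensity of the 6 ranged from 3318 to 3832 in the first and from 3140 to 3594 in the last sham run, and from 3580 to 3805 and 3459 to 3786 in the preconditioned arrays, and overlapped in both.

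Slc17a6, or VGLUT2, the glutamate transporter of thalamic and other subcortical inputs, measured 8.79, 8.65, 8.80, 8.99 and 8.70 and then 8.90, 8.75, 8.89, 8.54 and 8.88 in the same sham runs. These overlapped throughout, and the difference was 0.003 ± 0.11 (SE, 95% interval -0.22 to 0.22). Its preconditioned levels were 8.52, 8.86, 9.06, 8.97 and 8.99 and then 8.85, 9.06, 8.67, 8.71 and 8.95, a difference of -0.033 ± 0.11 (SE, 95% interval -0.25 to 0.19). Slc32a1, or VGAT, the transporter of inhibitory terminals, measured 7.77, 7.56, 7.61, 7.53 and 8.02 in the first sham run, 7.71, 7.34, 7.28, 7.50 and 7.54 in the second and 7.88, 8.05, 7.72, 8.05 and 7.88 in the last. The second run was lowest on average and the last highest, the F-test called it (limma adjusted p = 0.0272), and the last run minus the first was not called, at 0.22 ± 0.11 (limma adjusted p = 0.191). Its preconditioned arrays measured 7.61, 7.62, 7.68, 7.68 and 8.02 and then 7.54, 7.72, 7.94, 7.48 and 7.77, a difference of -0.035 ± 0.11 (SE, 95% interval -0.26 to 0.19).

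Over all 4 sham runs, the F-test called 15 of the 36 members, against 13.7% of all probe sets. These were Syn1, Syn2, Syp, Syt1, Syt4, Syt5, Vamp2, Stx1a, Cplx1, Cplx2, Cplx3, Nsf, Dnm1, Slc17a7 and Slc32a1. The call of Cplx1 ended without sham array 1, 2, 7, 9, 10, 17, 18, 19 or 20 (limma adjusted p up to 0.152). That of Nsf ended without sham array 1, 2, 3, 5, 10, 16, 17, 19 or 20 (up to 0.125), and that of Slc32a1 without sham array 7, 8, 17, 19 or 20 (up to 0.0845). With median centring the calls of Syt4, Cplx1 and Nsf ended (limma adjusted p = 0.0753, 0.0812 and 0.0863). With no filter on low signal those of Vamp2, Cplx1, Nsf and Slc32a1 did (0.101, 0.0854, 0.1 and 0.059). With no mean trend those of Vamp2, Cplx1 and Nsf did (0.0672, 0.065 and 0.0689). The mean was highest in the last run for 27 of 36 members, against 31.4% of probe sets, and in the preconditioned arrays for 24 of 36, against 24.6%. Run means stood in ascending order in 9 members in sham (8.08% of probe sets) and 12 in preconditioned arrays (7.89%), among them Syn2, Sypl1, Syt1, Stx1a and Cplx3 in both. All 5 sham arrays of the last run lay above all 5 of the first in 8 members (4.87% of probe sets), which were Syn2, Syp, Sypl1, Syt1, Vamp2, Cplx3, Nsf and Dnm1. In the preconditioned arrays this held for 8 as well (6.11%), with Syt5, Cplx2, Unc13a and Napb in place of Syp, Sypl1, Vamp2 and Dnm1. The reverse held for 0 members in either group, against 5.63% of probe sets in sham and 5.50% in preconditioned arrays.

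Between neighbouring sham runs 0, 0 and 2 members were called. From numbers 1 to 5 to numbers 6 to 10, 0 members were called by limma, against 1.26% of probe sets, with 9 at an unadjusted p under 0.05, a median difference of 0.026 and a Syn1 difference of -0.32 that was not called. From numbers 6 to 10 to 11 to 15, 0 were called, against 0.290%, the members' median was 0.032, and 5 had an unadjusted p under 0.05. From numbers 11 to 15 to 16 to 20, Syn1 and Dnm1 were called higher, against 0.650% of all probe sets, 0.220% higher and 0.430% lower. An unadjusted p under 0.05 was reached by 14 members, a count that the share called at the adjusted threshold does not match. The differences of Syn1 and Dnm1 were 0.42 ± 0.11 and 0.42 ± 0.099 (SE, limma adjusted p = 0.0468 and 0.0395), the median over the members was 0.16 against -0.001, and 32 of 36 lay above 0. The Syn1 call ended on leaving out any of the 10 arrays other than sham array 16, and the Dnm1 call any other than sham arrays 12 and 16. With median centring, 0 members and 24 probe sets higher against 97 lower were called in this step, in place of 41 and 80. These comparisons share sham arrays with each other and with the last run minus the first.

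The steps between neighbouring preconditioned runs were added after the values were seen, and they too share arrays with each other. From numbers 1 to 5 to 6 to 10, 3 members were called higher and 0 lower, against 3.98% of probe sets, 1.79% higher and 2.19% lower. These were Unc13a at 0.61 ± 0.14, Nsf at 0.41 ± 0.11 and Syt1 at 0.34 ± 0.094 (SE, limma adjusted p = 0.00929, 0.0206 and 0.0313). Unc13a measured 5.90, 5.88, 6.21, 6.11 and 5.78 in numbers 6 to 10, above all arrays of the first run given before. The median over the members was 0.092 against -0.001. Without preconditioned arrays 5 and 6, or without array 1, 2 or 6 alone, Unc13a was the 1 member called, and with only the 10 arrays compared 0 were, with a limma adjusted p of 0.051 for Unc13a.

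From numbers 6 to 10 to 11 to 15, 3 members were called higher and 1 lower, against 8.91% of probe sets, 5.13% higher and 3.78% lower. Syn1 differed by 0.38 ± 0.11, Syt5 by 0.30 ± 0.089 and Rab3a by 0.25 ± 0.064 (SE, limma adjusted p = 0.0205, 0.0284 and 0.0114). Synj1, the phosphatase that uncoats vesicles, was the 1 lower member. It measured 9.93, 9.36, 9.64, 9.87 and 9.57 in numbers 6 to 10 and 9.30, 9.38, 9.36, 9.18 and 9.47 in numbers 11 to 15, a difference of -0.335 ± 0.091 (SE, limma adjusted p = 0.0169). Array 7 of the earlier run lay among the arrays of the later one. Without preconditioned arrays 5 and 6 it was -0.27 and not called (limma adjusted p = 0.0616). The members' median was 0.009 against 0.028, and with median centring it was -0.062, Synj1 alone was called, and the split of all called probe sets moved from 956 higher and 704 lower to 383 and 1170. The count of 4 was 2 without preconditioned array 9, 11 or 12, 7 without array 8, and 0 with only the 10 arrays compared.

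From numbers 11 to 15 to 16 to 20, 0 members were called by limma, against 0.274% of probe sets, 7 had an unadjusted p under 0.05, and the median was 0.083 against -0.015. Centring moved the split of called probe sets in this step from 28 higher and 23 lower to 74 and 12. Over all 4 preconditioned runs, the F-test called 15 of the 36 members, against 22.8% of all probe sets. These were Syn1, Syn2, Syp, Syt1, Syt5, Stx1a, Cplx2, Cplx3, Rab3a, Unc13a, Nsf, Napb, Dnm1, Synj1 and Slc17a7. The call of Syn1 ended without preconditioned array 7 or 8 (limma adjusted p up to 0.0805), that of Syp without array 18 or 20 (0.0638), that of Stx1a without array 19 or 20 (0.0736) and that of Synj1 without array 6, 9 or 14 (0.103). With median centring the calls of Syn1, Syp, Stx1a and Rab3a ended (limma adjusted p = 0.0601, 0.0769, 0.0567 and 0.0846). With no filter on low signal those of Syn1 and Synj1 did (0.053 and 0.0616). Synj1 was not called without preconditioned arrays 5 and 6 either (0.11).

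Between preconditioned and sham arrays, over all 40, 1 of 36 members was called, Sv2b, where 0.891% of probe sets were called, 0.607% higher and 0.285% lower. The median difference of the members was 0.035 against -0.016 over all probe sets, and 24 of 36 lay above 0. With median centring of the arrays the members' median was 0.073, and the split of all called probe sets moved from 113 higher and 53 lower to 223 and 23. The 95% intervals of the 36 members reached from -0.26 to 0.33 at their ends, both of them for Cplx3, so a change of 1 on the log2 scale lies outside the interval of every member.

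Sv2b, a vesicle membrane glycoprotein with a transporter fold, had a lowest sham level of 10.74, a median of 11.03 and a highest value of 11.18 over 20 arrays. The 20 preconditioned arrays had a lowest level of 10.92, a median of 11.18 and a highest value of 11.65. The groups overlapped, and the difference was 0.19 ± 0.045 (SE, 1.14-fold, 95% interval 0.097 to 0.28, limma adjusted p = 0.0304). In order of the runs it was 0.23 ± 0.080, 0.28 ± 0.080, 0.074 ± 0.080 and 0.17 ± 0.080 (SE). None of the 4 was called without pairing by number, and with the number as a block numbers 6 to 10 were (limma adjusted p = 0.0469). Preconditioned arrays 5 and 6 were the highest of their runs, at 11.36 and 11.65. Without them the difference was 0.15 and not called (limma adjusted p = 0.0547), and without preconditioned array 10 the adjusted p was 0.0528. The mean of both Sv2b probe sets differed by 0.14 and was not called (limma adjusted p = 0.139), the second probe set alone by 0.089 ± 0.058 (SE). Markers of other cell types moved with preconditioning as well, and their part in the Sv2b difference was not tested. Over all arrays 2 of 9 astrocyte markers were called higher, Gfap at 0.66 and Aldoc at 0.27, 1 of 9 endothelial and mural markers, Vwf at 0.49 ± 0.068, and 1 of 8 oligodendrocyte lineage markers, Pdgfra at 0.22 ± 0.054 (SE, limma adjusted p = 7.5e-05 for Vwf and 0.0307 for Pdgfra). By the same test 0 of 6 microglia and 0 of 9 neuron markers were called. The call also ended with no filter on low signal (limma adjusted p = 0.052), without numbers 1 to 5 (0.19) and without numbers 6 to 10 (0.216).

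Other vesicle proteins and the endocytic members had positive differences that were not called. Syp differed by 0.12 ± 0.068, Syn1 by 0.12 ± 0.075 and Syn2 by 0.005 ± 0.082 (SE). Of the endocytic members, Synj1 differed by 0.15 ± 0.054, Dnm1 by 0.13 ± 0.082 and Snap91 by 0.11 ± 0.045 (SE), with limma adjusted p-values of 0.17, 0.471 and 0.236. Bsn differed by 0.13 ± 0.045 (SE, limma adjusted p = 0.163). The SNARE proteins lay on both sides of 0, Vamp2 at 0.12 ± 0.068, Snap25 at 0.080 ± 0.046 and Stx1a at -0.039 ± 0.061 (SE), and so did the calcium sensors, Syt1 at -0.012 ± 0.070. The transporters differed by 0.071 ± 0.094 for Slc17a7, 0.071 ± 0.056 for Slc17a6 and 0.016 ± 0.064 for Slc32a1 (SE).

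**Figure D3:**
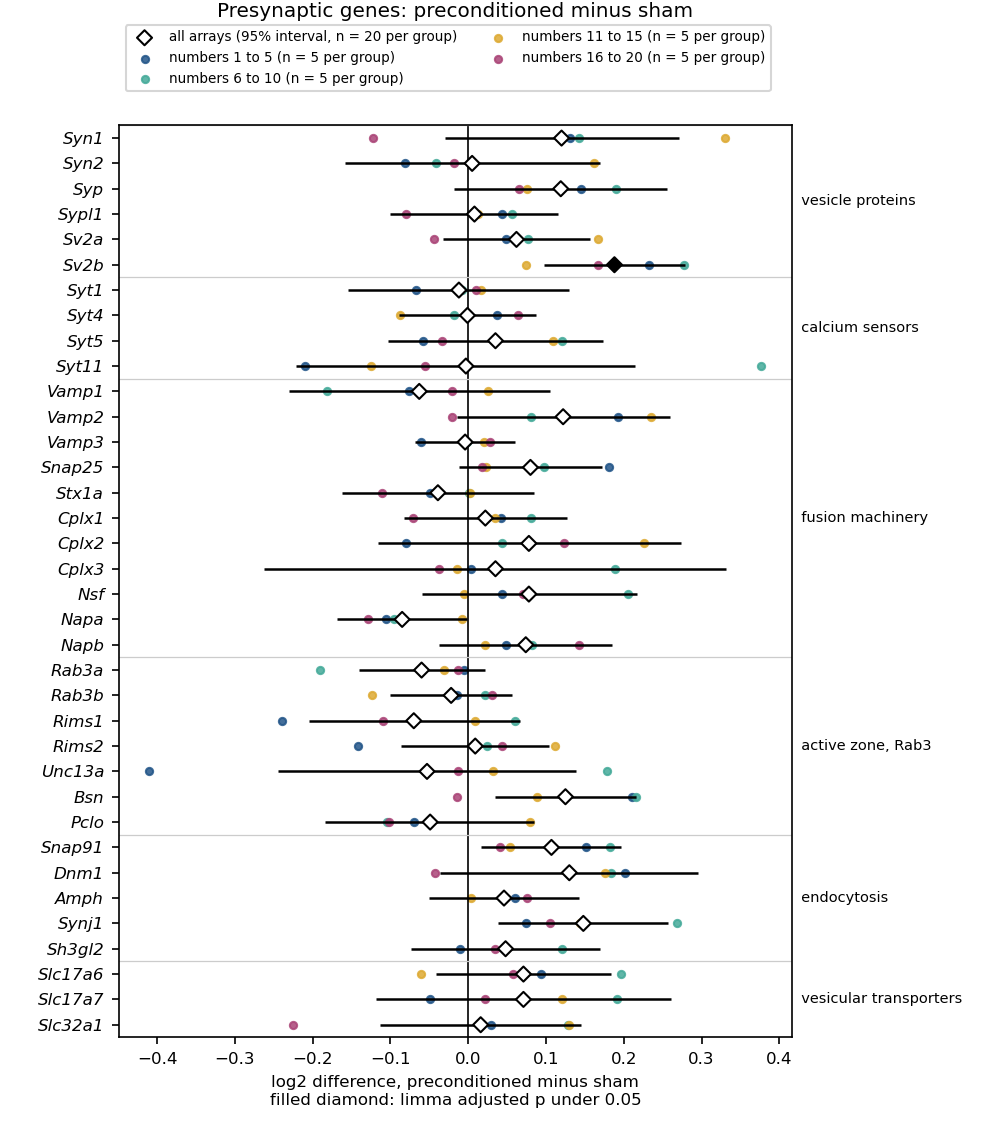
Preconditioned minus sham log2 difference of each measured member over all arrays (diamonds with 95% intervals, n = 20 per group) and within each run of sample numbers (coloured points, n = 5 per group). The filled diamond of Sv2b at 0.19 is the 1 call, and the point farthest from 0 is Unc13a in numbers 1 to 5, at -0.41.

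Within the runs and without pairing by number, 0 members were called in numbers 1 to 5 (against 2.39% of probe sets), 6 to 10 (2.22%), 11 to 15 (0.0698%) and 16 to 20 (0%). By the same limma fit 4, 4, 2 and 1 of them had an unadjusted p under 0.05. The members' medians were 0.016, 0.082, 0.033 and -0.013, and with median centring 0.084, 0.16, 0.013 and 0.017, so that of numbers 16 to 20 changed sign. Centring also moved the split of all called probe sets from 230 higher and 215 lower to 347 and 85 in numbers 1 to 5, from 204 and 209 to 409 and 81 in 6 to 10, and from 9 and 4 to 6 and 5 in 11 to 15.

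Unc13a in numbers 1 to 5 and Rab3a in numbers 6 to 10 were the members whose preconditioned and sham arrays did not overlap. In each of these runs that was 1 of 36 members, close to the share of all probe sets. Unc13a measured 5.39, 5.36, 5.36, 5.42 and 5.31 in the preconditioned and 5.90, 5.57, 6.04, 5.68 and 5.69 in the sham arrays of numbers 1 to 5. Every preconditioned array lay below every sham array, as for 2.28% of all probe sets in this run, and the difference was -0.41 ± 0.14 (SE, limma adjusted p = 0.106). In the later runs its difference was 0.18, 0.032 and -0.013. Rab3a, the vesicle GTPase, measured 10.44, 10.42, 10.38, 10.36 and 10.42 in the preconditioned and 10.55, 10.56, 10.65, 10.55 and 10.65 in the sham arrays of numbers 6 to 10. All preconditioned arrays were lower, as for 2.01% of probe sets in this run, with a difference of -0.19 ± 0.064 (SE, limma adjusted p = 0.0983), and with quantile normalization Rab3a was called lower there. A second Rab3a probe set differed by -0.036 ± 0.079 (SE, limma adjusted p = 0.865) in numbers 6 to 10.

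An F-test of the interaction asked if preconditioning minus sham varied with the run. It called 0 of 36 members by limma, against 0.762% of all probe sets, and 2 had an unadjusted p under 0.05. These were Unc13a and Syn1, with limma adjusted p-values of 0.329 and 0.353. The difference between the sham and the preconditioned run comparison is only a part of this F-test and was not tested alone. The run differences of Syn1 (0.29 in sham, 0.038 in preconditioned) and Unc13a (0.39 and 0.79) were therefore not shown to differ, nor shown to be alike.

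Where a member had a second probe set above the filter, it was read separately. This held for 12 of the 36 members, with 14 further probe sets. Of the 7 that belong to 5 members called in the sham run comparison, 6 were called in the same direction, and likewise 6 of 7 in the preconditioned one. No further probe set was called in the opposite direction in either. The other 2 probe sets of Syn2 differed by 0.44 ± 0.12 and 0.56 ± 0.099 in sham arrays (SE), and those of Stx1a and Slc17a7 by 0.47 and 0.55. A second probe set of Rab3a was called higher in the last run in both groups, at 0.26 ± 0.079 in sham and 0.27 ± 0.079 in preconditioned arrays (SE), while the first, at 0.16 and 0.15, was not.

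Other genes of the presynapse were read from a separate list. From a list of 68 further presynaptic genes, 51 were measured, of which 10 were called higher and 0 lower in the last sham run, with a median difference of 0.11. Of all probe sets, 6.94% were called higher and 7.88% lower in that comparison. The 4 with the largest differences were Lin7b (0.64 ± 0.11), Gad2 (0.43 ± 0.14), Sncb (0.36 ± 0.083) and Rabac1 (0.35 ± 0.092), each with its SE. Among preconditioned arrays 11 were called higher and 2 lower, against 9.58% and 8.03% of all probe sets. The higher ones were led by Unc13c (0.63 ± 0.14), while Apba1 and Snap23 were lower by 0.34 and 0.30. Between preconditioned and sham arrays 0 of the 51 were called by limma, against 0.891% of all probe sets, with 4 at an unadjusted p under 0.05.

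On the receiving side of the synapse, 7 of 30 measured postsynaptic genes were called higher and 0 lower in the last sham run, against 6.94% of probe sets called higher, with a median of 0.16. In the preconditioned arrays 2 of 30 were called, Camk2g and Dlg2, named after their values were seen, a share under the 9.58% of probe sets called higher, with a median of 0.087. Between preconditioned and sham arrays, Gria2 was the postsynaptic gene called over all arrays, also named after its values were seen. It was higher by 0.20 ± 0.047 (SE, limma adjusted p = 0.0229), where 0.891% of probe sets were called. In numbers 1 to 5 it was called too, at 0.34 ± 0.082 (SE, limma adjusted p = 0.0146), against 2.39% of probe sets. Of 18 measured genes of immature neurons, 5 were called lower and 1 higher in the last sham run, with a median of -0.035. Of all probe sets, 7.88% were called lower and 6.94% higher. Among preconditioned arrays 10 were called lower and 0 higher, against 8.03% and 9.58% of all probe sets, with a median of -0.30.

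**Figure D4:**
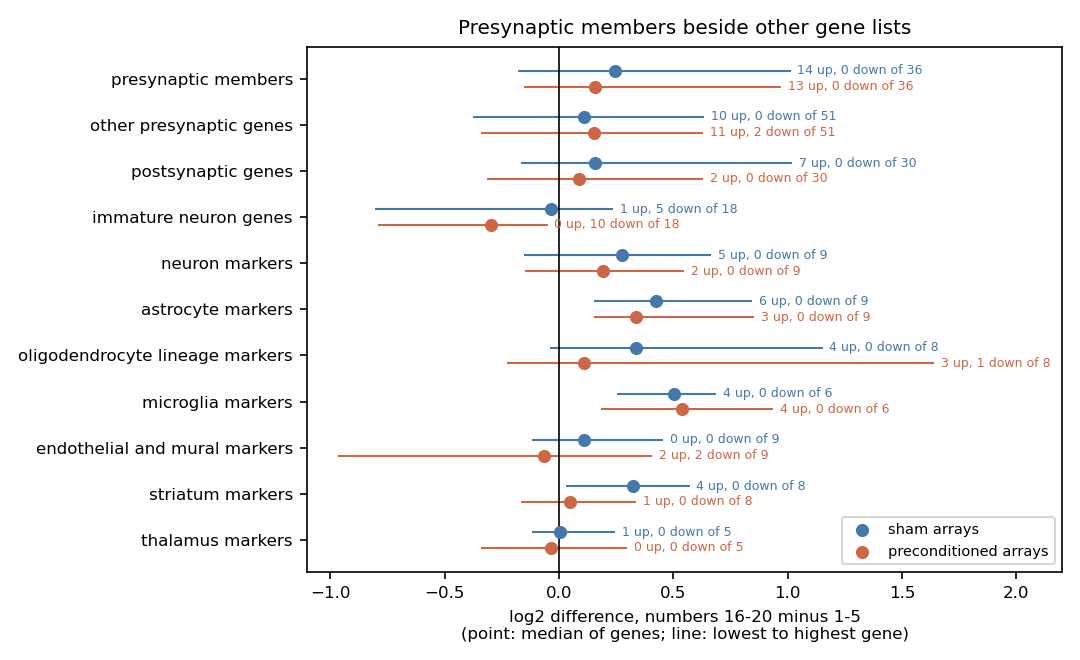
Log2 difference between the arrays numbered 16 to 20 and 1 to 5 for the 36 presynaptic members and 10 other gene lists, in sham (blue) and preconditioned (orange) arrays. Points are the median of the measured genes of a list and lines reach from its lowest to its highest gene, and the text beside each line counts the genes called higher (up) and lower (down); medians of the microglia, astrocyte and presynaptic lists lie to the right of 0 in both groups and those of the immature neuron list to the left.

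Markers of other cell types moved with the same runs, and their part in the presynaptic differences was not tested. In the last sham run 6 of 9 astrocyte, 4 of 8 oligodendrocyte lineage and 4 of 6 microglia markers were called higher and 0 lower, as were 5 of 9 neuron markers, a list that holds Syt1 and Snap25. Of all probe sets, 6.94% were called higher and 7.88% lower there. The summed intensity of the astrocyte markers ranged from 8622 to 9577 in the first and from 10140 to 12680 in the last sham run, without overlap. That of the oligodendrocyte lineage markers ranged from 2233 to 2433 and then from 2509 to 3968, and that of the microglia markers from 365.9 to 502.9 and then from 513.9 to 794.3. The neuron marker sum ranged from 13950 to 15770 and then from 14900 to 16810, and overlapped. The microglia markers Itgam, Cd68 and Ptprc had no probe set above the filter.

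In the preconditioned arrays the corresponding counts were 3 of 9 astrocyte, 3 of 8 oligodendrocyte lineage, with Pdgfra called lower, 4 of 6 microglia and 2 of 9 neuron markers higher. Of all probe sets, 9.58% were called higher and 8.03% lower in the preconditioned comparison. Astrocyte sums there ranged from 9229 to 11230 in the first and from 11140 to 14540 in the last run, and overlapped. Endothelial and mural markers were not called in the sham comparison, and 2 were called higher and 2 lower in the preconditioned one. Striatal markers were called higher in 4 of 8 cases in the last sham run, with a summed intensity of 1186 to 1345 and then 1501 to 1668, and in 1 of 8 in the preconditioned one. Interneuron markers were called higher in 3 of 8 cases in sham and 1 of 8 in preconditioned arrays, thalamus markers in 1 of 5 and 0 of 5. The 1 thalamus call was Calb2, a gene in both lists and also 1 of the 3 interneuron calls. In preconditioned arrays, the 1 of 8 striatal and 1 of 8 interneuron markers lie near the 9.58% of all probe sets called higher. Of 3 hippocampus markers 0 were called in sham, and in preconditioned arrays 1 was called higher and 2 lower. Actin 3' to 5' ratios ranged from 1.51 to 1.90 in the first sham run and from 1.46 to 1.63 in the last, and overlapped. In the preconditioned arrays they ranged from 1.69 to 1.82 and then from 1.45 to 1.61, without overlap. The part of this ratio in the presynaptic differences was not tested. The mean log2 level of the 36 members per array ranged from 8.74 to 8.92 in the first sham run and from 8.94 to 9.17 in the last, and from 8.73 to 8.92 and 8.96 to 9.18 in the preconditioned arrays, with no overlap between first and last run in either group.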

How the data were processed

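Total RNA of rat cerebral cortex was measured on 40 Affymetrix arrays, 20 per group. The deposited values are linear probe set intensities with a 2% trimmed mean of 150 on every array, found from the values. The software that made them is not given in the sources used here. A floor of 16 was applied before log2, with no further normalization. Of 31099 probe sets, 57 controls were left out, and the 18625 with a mean above the 40th percentile (intensity 31.9) were kept. Probe sets were named from the platform annotation: 14273 had 1 gene, 309 several and 4043 none. Gene IDs of 20758 matched RefSeq on GRCr8, and 0 symbols changed.

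Preconditioned and sham arrays were compared in limma 3.58.1 (R 4.3.3, eBayes with a mean trend) over all 40 arrays. Runs were compared in 1 fit of 8 group means, with moderated F-tests for the interaction and for the sham and the preconditioned level between runs. Tests were two-sided, with Benjamini-Hochberg adjustment over all kept probe sets. The procedure was tested on simulated data. No pair of arrays held identical values. For the last run minus the first in each group, the 8 called members with the largest difference were given by array. Syp, Syn1, Snap25, Syt1, Vamp2, Slc17a7, Slc17a6 and Slc32a1 were named whatever their result. Up to 4 called genes were named of a comparison list. The members and lists were chosen with earlier results of these data known. Alternatives covered normalization, floor, pseudocount, filter, trend, probe set choice, blocks and arrays left out. The number of arrays limits the precision.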

Additional observations from a re-analysis of the deposited data

Results flagged for a closer look

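In groups of 5 arrays, 17 values lay far from the rest of their group, by a gap to the nearest array of over 0.71 of the group's range. They come from 200 such groups (25 genes in 8 groups each), and chance flags about 1 in 20. Values are log2 intensities, with the nearest array of the group in brackets.

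Among the vesicle proteins, Syp was high on preconditioned array 5, at 9.882 (9.477), and on preconditioned array 12, at 10.072 (9.623). Sypl1 was high on preconditioned array 19, at 10.115 (9.875). Sv2b was low on preconditioned array 11, at 11.055 (11.158). Of the calcium sensors, Syt1 was low on preconditioned array 11, at 9.52 (10.012), and Syt5 high on sham array 15, at 8.923 (8.774).

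In the fusion machinery, preconditioned array 6 was high for Snap25, at 12.39 (11.84), and for Cplx1, at 10.385 (10.06). Cplx1 was also high on sham array 12, at 10.266 (10.065). Cplx2 was high on sham array 5, at 8.049 (7.795), and on preconditioned array 17, at 8.599 (8.417). Cplx3 was low on preconditioned array 1, at 4.825 (6.347), and without that array its preconditioned run difference was 0.65 (limma adjusted p = 0.00823).

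Unc13a was low on sham array 7, at 5.361 (5.831), and Synj1 high on sham array 1, at 9.754 (9.401). Of the transporters, Slc17a6 was low on preconditioned array 8, at 8.624 (8.989), Slc17a7 low on preconditioned array 16, at 8.758 (9.315), and Slc32a1 high on preconditioned array 5, at 8.023 (7.684). Preconditioned arrays 5 and 6, whose array medians also stood apart, hold 4 of the 17 values.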

How the results depend on the processing

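Of 167 counts of called members under alternatives, 149 stayed within 1.5 times their value or stayed at 0, and 18 did not. Comparisons with 0 calls in the main fit are among the 149 wherever they kept 0. Of 642 values of single called members, 55 lost their call and 0 reversed. The 642 include F-test results, which have no direction and could not reverse. For preconditioned minus sham over all arrays, the 1 call became 0 with no filter, without preconditioned arrays 5 and 6, with the mean of all kept probe sets, without numbers 1 to 5 and without numbers 6 to 10, and 2 (Sv2b and Bsn) without numbers 16 to 20. In numbers 6 to 10, the count of 0 became 1 with quantile normalization (Rab3a), 2 with median centring (Sv2b and Bsn) and 1 with the filter at the 60th percentile (Sv2b). For sham numbers 16 to 20 minus 11 to 15, the count of 2 became 0 with median centring, no filter and no mean trend, and 4 with only the arrays compared. For preconditioned numbers 6 to 10 minus 1 to 5, chosen after seeing the data, the count of 3 became 1 without preconditioned arrays 5 and 6 and 0 with only the arrays compared. For 11 to 15 minus 6 to 10, also chosen then, the count of 4 became 1 with median centring and 0 with only the arrays compared. Without preconditioned arrays 5 and 6 the last sham run minus the first had 18 calls, 17 higher and Syt4 lower, through the estimate of the spread alone. The causes of the other changes were not tested. The filter at the 60th percentile left Unc13a with no probe set.

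Leaving out 1 array at a time gave 0 to 1 calls over all arrays (0 without preconditioned array 10), 0 to 2 in numbers 6 to 10 (2 without preconditioned array 7, 1 without array 8), and 0 to 0 in the other runs, in the interaction, and in the earlier steps between neighbouring sham runs. It gave 11 to 17 for the sham F-test, 12 to 18 and 11 to 14 for the last minus the first run in sham and preconditioned arrays, and 0 to 6 for sham numbers 16 to 20 minus 11 to 15 (6 without sham array 16). It gave 13 to 16 for the preconditioned F-test, 1 to 4 for preconditioned numbers 6 to 10 minus 1 to 5, 2 to 7 for 11 to 15 minus 6 to 10, and 0 to 0 for 16 to 20 minus 11 to 15.

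The labels do not say that shared sample numbers pair the arrays, so the main fits do not use them as pairs. Deviations of same-numbered arrays correlated at 0.031 to 0.393 (median 0.159), 15 of 20 over 0.1, and 19 of 20 arrays correlated best with their own number, a hint from the data and not the design. With the replicate block, numbers 6 to 10 had 1 call in place of 0, Sv2b (limma adjusted p = 0.0469). The 1 call over all arrays was again Sv2b (limma adjusted p = 0.0103).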
